A study of Homo sapiens with 6 samples.

Results

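IL11, IL6, LIF and CLCF1, 4 cytokines of the IL-6 family, were measured together with the receptor subunits IL6ST, IL6R, OSMR and LIFR, the transcription factor STAT3 and the feedback inhibitor SOCS3. These 10 genes were taken by symbol from a deposited table of 57736 genes, and all 10 have a row there. IL6ST, OSMR and LIFR lie on chromosome 5, SOCS3 and STAT3 on 17, IL6R on 1, IL6 on 7, CLCF1 on 11, IL11 on 19 and LIF on 22. They were chosen by their roles and with the NRG1-against-control difference of these same libraries in view, above all the lower IL11 in the NRG1 libraries. The values below therefore describe the members and are no test of them. The cells were AALE, an airway line derived from human bronchial basal cells that SV40 genes and hTERT, the catalytic part of telomerase, keep dividing. Stable pools carried either a lentiviral NRG1 overexpression vector (NRG1 encodes neuregulin, a growth factor that binds ERBB receptors) or a lentiviral control vector. Both kinds of pool were grown in the same small airway medium, and polyA RNA was sequenced from 3 libraries of each (NRG1 1 to 3 and control 1 to 3). A pool is a mixture of transduced cells, the labels name no isoform of NRG1, and they do not state whether the 3 libraries of a group came from separate cultures. The p-values may thus measure technical spread.

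Cytokines of the IL-6 family share the signal-transducing receptor gp130, the product of IL6ST. A cytokine joins gp130 to a further chain, such as the IL-6 receptor, the LIF receptor or the oncostatin M receptor, and the bound JAK kinases then phosphorylate STAT3. STAT3 switches on SOCS3, whose product binds gp130 and the JAKs and so limits the signal. In airway epithelium IL-6 and IL-11 are known as cytokines released after injury, viral infection or exposure to TGF-beta.

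The sequences before the transcription start are given for IL11 and IL6, the members with the widest relative span between libraries, for SOCS3, the next widest, and for IL6R, the receptor chain with its highest values in NRG1 2 and NRG1 3. They come from RefSeq promoter windows on GRCh38.p14, from 250 bases before to 50 after the annotated start. Of the 10 members, 8 had a window in that table (11 windows in all), and LIF and CLCF1 had none. Capitals mark letters of 4 motifs searched on both strands: TTCNNNGAA for STAT factors, TGANTCA for AP-1, GGANTTTCC for NF-kB and TTGCNNAA for C/EBP. The IL11 window lies on the minus strand at chr19:55370414-55370713, IL6 on the plus strand at chr7:22726950-22727249, SOCS3 (its upstream window) on the minus strand at chr17:78360876-78361175, and IL6R on the plus strand at chr1:154405093-154405392.
IL11: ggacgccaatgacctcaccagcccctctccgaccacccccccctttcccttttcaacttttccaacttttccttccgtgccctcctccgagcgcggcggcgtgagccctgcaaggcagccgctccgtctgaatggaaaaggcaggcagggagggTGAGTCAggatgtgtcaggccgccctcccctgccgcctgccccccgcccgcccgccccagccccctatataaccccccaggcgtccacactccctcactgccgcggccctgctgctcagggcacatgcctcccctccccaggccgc
IL6: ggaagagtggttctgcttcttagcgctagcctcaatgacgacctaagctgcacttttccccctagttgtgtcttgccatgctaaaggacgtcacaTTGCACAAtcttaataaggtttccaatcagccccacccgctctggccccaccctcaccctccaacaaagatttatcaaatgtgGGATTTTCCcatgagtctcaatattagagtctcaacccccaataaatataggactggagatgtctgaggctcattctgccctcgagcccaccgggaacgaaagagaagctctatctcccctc
SOCS3: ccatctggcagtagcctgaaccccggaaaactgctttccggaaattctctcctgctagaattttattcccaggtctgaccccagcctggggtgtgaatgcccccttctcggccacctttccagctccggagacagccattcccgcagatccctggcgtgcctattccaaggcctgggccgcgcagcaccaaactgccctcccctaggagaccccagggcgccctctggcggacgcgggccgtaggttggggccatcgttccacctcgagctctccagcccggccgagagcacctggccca
IL6R: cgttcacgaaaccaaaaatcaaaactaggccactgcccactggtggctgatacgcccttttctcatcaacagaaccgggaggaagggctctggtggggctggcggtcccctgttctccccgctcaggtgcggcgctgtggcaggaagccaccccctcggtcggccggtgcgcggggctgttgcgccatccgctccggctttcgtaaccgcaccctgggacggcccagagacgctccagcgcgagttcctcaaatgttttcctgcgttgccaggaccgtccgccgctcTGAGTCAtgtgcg
The AP-1 letters of IL11 began 96 bases before the start and those of IL6R 38 bases after it. IL6 held the NF-kB letters at 72 and the C/EBP letters at 155 bases before the start. OSMR held the AP-1 and C/EBP letters, and LIFR the STAT letters in 2 of its 3 windows and the C/EBP letters in 1. The windows of IL6ST, STAT3 and SOCS3 held none of the 4 strings. Of 35116 promoter windows of the same length, 7.71% held the AP-1 letters, 7.66% the STAT letters, 1.64% the NF-kB letters and 10.5% the C/EBP letters. A match of letters is a description of the window and not a measured binding site, and the 4 motifs do not overlap each other where they occur here.

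Total expected counts ran from 8612234 to 10609067 in the NRG1 libraries and from 9549284 to 13207620 in the control libraries, so a gene at 10 CPM (counts scaled by library size, with TMM factors) rested on 81 to 130 counts. NRG1, the targeted gene, stood at 6647, 3854 and 3781 CPM in NRG1 1 to 3, against 11.6, 7.87 and 12.3 CPM in control 1 to 3. It was higher by a log2 fold change of 8.80 (SE 0.38, adjusted p = 0.00012, edgeR's quasi-likelihood test, Benjamini-Hochberg adjustment) and was the 1 gene called among 15421 tested, or 0.00648%. At an unadjusted p under 0.05, 5.08% of tested genes were higher and 6.72% lower with NRG1, and DESeq2 called 1.36%. Control 3 stood apart from the other controls. It held the highest value of 29.9% of the tested genes and of 6 of the 10 members. NRG1 1 held the highest value of 21.7% of tested genes. Member values without these libraries are therefore given beside those with all 6. Markers of basal epithelium were all present, at a summed 6984 to 8252 CPM in NRG1 libraries and 9839 to 13751 CPM in control libraries. KRT5 was the largest part, at a mean of 3409 CPM with NRG1 and 4868 CPM with the control vector. The 10 markers did not move together. All NRG1 libraries lay above all controls in 2 (CDH1 and EPCAM) and below them in 3, beside 9.36% and 10.2% of tested genes. CD3D, CD3E and MS4A1 of the leukocyte list and CDH5 of the endothelial list were at 0 in every library, and 7 of the 10 leukocyte markers stayed under 1 CPM everywhere, with list sums of 11.5 to 28.3 CPM in NRG1 and 22.3 to 34.4 CPM in control libraries. The 5 endothelial markers with a row summed to 2.24 to 4.08 CPM in NRG1 and 1.08 to 2.10 CPM in control libraries. The 10 fibroblast markers summed to 70.1 to 96.4 CPM in NRG1 libraries and 140 to 169 CPM in control libraries, with 3 of the 10 under 1 CPM everywhere and none at 0 in every library. The part of these marker levels in the results below was not tested.

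IL11 was the member with the widest gap between the groups. This cytokine, which signals through IL-11 receptor alpha and gp130, had 3.21, 2.06 and 1.85 CPM in NRG1 1 to 3, against 13.0, 8.78 and 34.4 CPM in control 1 to 3. All NRG1 libraries lay below all control libraries, and control 3 was far above the other controls. The means were 2.37 ± 0.74 CPM with NRG1 and 18.7 ± 13.7 CPM with the control vector (SD, n = 3 each), a fitted log2 fold change of -3.00 (SE 0.59). With all 6 libraries, IL11 was among the 12 of 15421 tested genes with a fitted value this low or lower. This place is no test, because IL11 was chosen with this difference in view. Without control 3 the log2 fold change was -2.22, without NRG1 1 it was -3.26, and without both it was -2.48. IL11 (ENSG00000095752, chromosome 19) rested on 17 to 26 expected counts in the NRG1 libraries and on 87 to 445 in the control libraries, so counting error adds to the spread at the low end. In bulk RNA, fewer cells that make a transcript and less transcript per cell cannot be told apart.

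IL6, which signals through the IL-6 receptor and gp130, was barely detected. It had 1.24, 0.187 and 0.109 CPM in NRG1 1 to 3, against 0.806, 0.606 and 3.01 CPM in control 1 to 3. The groups overlapped, since NRG1 1 lay above control 1 and control 2. These levels rest on 10, 2 and 1 counts with NRG1 and on 10, 6 and 39 counts with the control vector, so IL6 did not pass the low-count filter and has no fitted fold change. Control 3 was the highest library for IL6 as it was for IL11.

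LIF, which binds the LIF receptor and gp130, had 6.43, 7.57 and 6.73 CPM in NRG1 1 to 3, against 5.48, 12.4 and 4.32 CPM in control 1 to 3. The NRG1 libraries lay close together inside the wider span of the controls, and control 3, the highest library for IL11 and IL6, was the lowest for LIF. The log2 fold change was -0.07 (SE 0.42), and leaving out control 2, the highest LIF library, gave 0.50. CLCF1, a cytokine of the ciliary neurotrophic factor receptor, had 6.80, 9.16 and 11.0 CPM in NRG1 1 to 3, against 8.14, 4.84 and 5.87 CPM in control 1 to 3. NRG1 2 and NRG1 3 lay above every control, and NRG1 1 lay between control 1 and control 3. Its log2 fold change was 0.51 (SE 0.32), and 0.45 to 0.67 without control 3, without NRG1 1 or without both. The CLCF1 value is uncertain, because an annotated gene on the same strand (ENSG00000256514) shares 61 exon bases with CLCF1 and its other 650 with the neighbouring POLD4. Its expected counts were 38.2, 45.3 and 49.9 in NRG1 1 to 3 and 0 in each of the 3 control libraries, and RSEM can share reads among such overlapping genes.

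**Figure D1:**
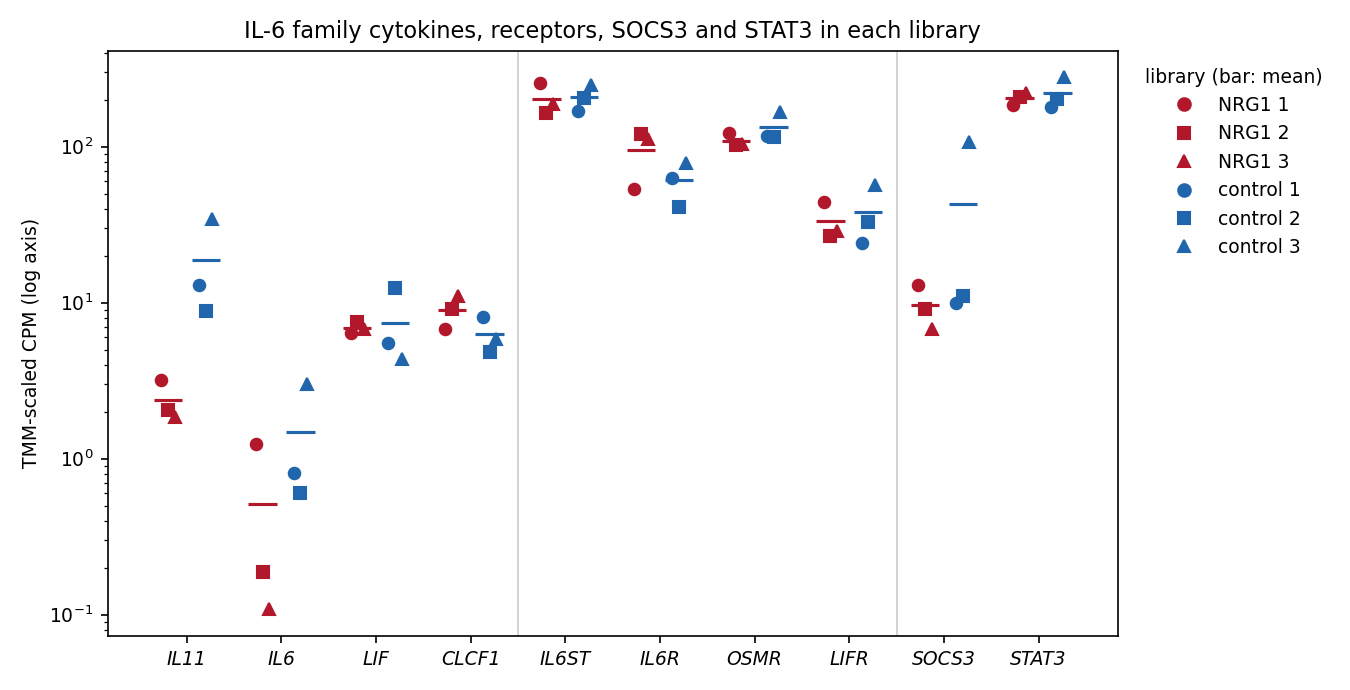
TMM-scaled CPM of each member (log axis) in the 3 NRG1 libraries (red, left) and the 3 control libraries (blue, right). Points are libraries, bars are group means, and grey lines part ligands, receptors and signal genes. The NRG1 libraries of IL11 sit between 1.85 and 3.21 CPM, all below the controls, and control 3 of SOCS3 sits at 107 CPM, far above the other 5 libraries.

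Among the receptor chains, the groups overlapped in every case. IL6R, the chain that binds IL-6, had 53.4, 120 and 111 CPM in NRG1 1 to 3, against 62.5, 40.8 and 78.7 CPM in control 1 to 3. NRG1 2 and NRG1 3 were the highest libraries, while NRG1 1 lay inside the control range. The log2 fold change was 0.65 (SE 0.34), the largest positive value among the members, and it was 0.87 without control 3, 0.93 without NRG1 1 and 1.16 without both.

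IL6ST, the shared signal-transducing chain, had 255, 164 and 187 CPM in NRG1 1 to 3, against 170, 205 and 247 CPM in control 1 to 3. Its highest and lowest libraries both carried the NRG1 vector, and the log2 fold change was -0.04 (SE 0.21). OSMR, which pairs with gp130 to bind oncostatin M, had 122, 102 and 104 CPM in NRG1 1 to 3, against 117, 115 and 167 CPM in control 1 to 3. NRG1 2 and NRG1 3 were the lowest libraries and control 3 the highest, and NRG1 1 lay between control 1 and control 3. Its log2 fold change was -0.28 (SE 0.19), and -0.09 without control 3. OSMR shares 229 exon bases with RICTOR on the opposite strand, and the kit named in the labels does not mark strand. RICTOR had 547 to 688 expected counts in the NRG1 libraries, against 754, 552 and 1723 in control 1 to 3, so it too was highest in control 3.

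LIFR, the chain that binds LIF, had 44.0, 26.6 and 29.0 CPM in NRG1 1 to 3, against 24.3, 32.8 and 56.5 CPM in control 1 to 3. NRG1 1 and control 3 were the highest library of their groups, as they were for IL6ST and OSMR. The log2 fold change was -0.19 (SE 0.34) with all libraries, 0.21 without control 3 and -0.03 without both NRG1 1 and control 3. LIFR and OSMR are neighbouring genes on chromosome 5.

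SOCS3, the feedback inhibitor of gp130 signalling, differed between the groups through a single library. It had 13.0, 9.16 and 6.73 CPM in NRG1 1 to 3, against 9.99, 11.1 and 107 CPM in control 1 to 3. The NRG1 libraries overlapped with control 1 and control 2, and control 3 was 10.2 times the mean of the other controls. It was among the 17 of 15421 tested genes with control 3 at least that far above the other controls. The group means were 9.62 ± 3.15 CPM with NRG1 and 42.8 ± 55.9 CPM with the control vector (SD, n = 3 each). The log2 fold change of -2.17 (SE 0.89) became -0.15 without control 3 and -0.40 without control 3 and NRG1 1. STAT3, the transcription factor of the pathway, had 185, 208 and 222 CPM in NRG1 1 to 3, against 180, 201 and 278 CPM in control 1 to 3. Its libraries differed little apart from control 3, and the log2 fold change was -0.10 (SE 0.19) with all libraries and 0.10 without control 3.

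Of the 9 members that could be fitted, 7 had a log2 fold change below 0 and 2 (CLCF1 and IL6R) above 0. Their median was -0.10, beside 0.0003 for all tested genes. An absolute log2 fold change of at least 1 was reached by 2 members (IL11 and SOCS3) and by 6.84% of tested genes. The groups did not overlap in 1 of the 10 members, IL11. Over all tested genes, all NRG1 libraries lay below all controls in 10.2% and above all controls in 9.36%. Since the members were chosen with this contrast in view, nothing is read from these counts. Control 3 decided the size or sign of several values. Without it SOCS3 lost most of its difference and IL6ST, LIFR and STAT3 were slightly positive, against slightly negative with it, while the sign of the other 6 fitted members was the same in each of these 4 sets of libraries.

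**Figure D2:**
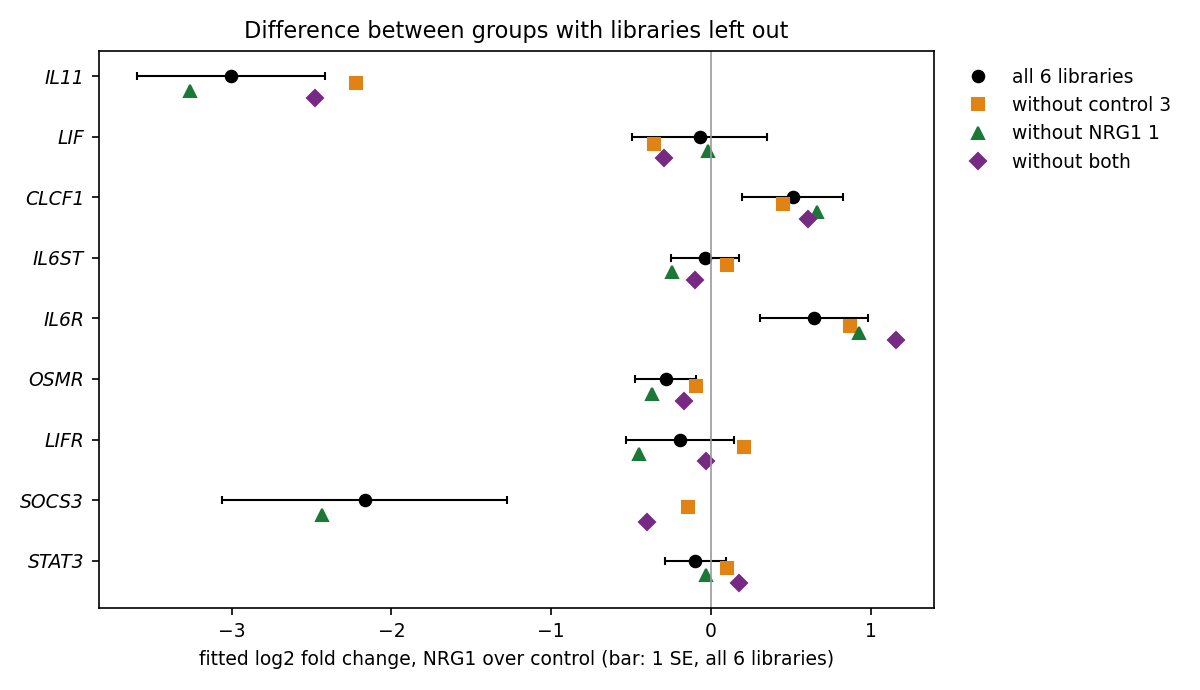
Fitted log2 fold change, NRG1 over control, of the 9 members that passed the low-count filter, with all 6 libraries (black, bar of 1 SE) and with control 3, NRG1 1 or both left out. IL11 stays between -3.26 and -2.22, and SOCS3 moves to -0.15 without control 3, against -2.17 with all 6 libraries.

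NRG1 2 and NRG1 3 resembled each other more than NRG1 1 in several members. Both lay above the 4 other libraries in CLCF1 and IL6R, and both lay below the 4 others in IL11, IL6, OSMR and SOCS3. Over all tested genes both lay above the 4 others in 16.9% and below them in 16.5%. In the remaining 4 members at least 1 of them fell within the range of the other libraries. The NRG1 transcript itself was higher in NRG1 1 than in the other NRG1 libraries. The span between libraries was widest for IL6, whose highest library was 27.7 times the lowest, then IL11 at 18.6 times and SOCS3 at 16.0 times. It was narrowest for STAT3 and IL6ST, at 1.55 and 1.56 times, so the shared receptor chain and the transcription factor varied least by this measure. The IL6 span rests on 39 counts in control 3 and 1 count in NRG1 3, so counting error adds to it.

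Levels of different members can be compared per kilobase of transcript, using the length of the principal GENCODE 29 transcript. By this length STAT3 was the most abundant in every library, at 40.6 ± 3.70 CPM per kilobase with NRG1 and 43.5 ± 10.3 with the control vector (SD, n = 3 each). IL6ST followed at 22.3 ± 5.24 CPM per kilobase with NRG1 and 22.9 ± 4.26 with the control vector, and OSMR at 19.7 ± 1.96 with NRG1 and 24.0 ± 5.34 with the control vector. IL6ST and OSMR did not differ beyond their spread. IL6R had 16.0 ± 6.12 CPM per kilobase with NRG1 and 10.3 ± 3.22 with the control vector. Its NRG1 libraries, at 9.03 to 20.3, reached above the lowest NRG1 library of OSMR at 18.5, and its control libraries, at 6.89 to 13.3, lay below those of OSMR at 20.7 to 30.2. LIFR was lower, at 3.29 ± 0.93 CPM per kilobase with NRG1 and 3.75 ± 1.66 with the control vector.

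Among the ligands, CLCF1 had 4.87 ± 1.13 CPM per kilobase with NRG1 and 3.41 ± 0.92 with the control vector, and LIF 1.74 ± 0.15 with NRG1 and 1.87 ± 1.10 with the control vector. IL11 had 1.04 ± 0.32 CPM per kilobase with NRG1 and 8.20 ± 6.01 with the control vector (SD, n = 3 each). Its rank among the 10 members was 9 in every NRG1 library, and 5 or 6 in the control libraries. SOCS3 had rank 2 in control 3 and ranks 5 to 7 in the other libraries. IL6 was the lowest member in every library but control 3, where LIF was lower. The ratio of IL6R to IL6ST, both per kilobase, was 0.321, 1.12 and 0.913 in NRG1 1 to 3, against 0.564, 0.304 and 0.488 in control 1 to 3. NRG1 2 and NRG1 3 thus held about as much IL6R as IL6ST transcript per length, and the ratio of NRG1 1 lay within the control range.

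**Figure D3:**
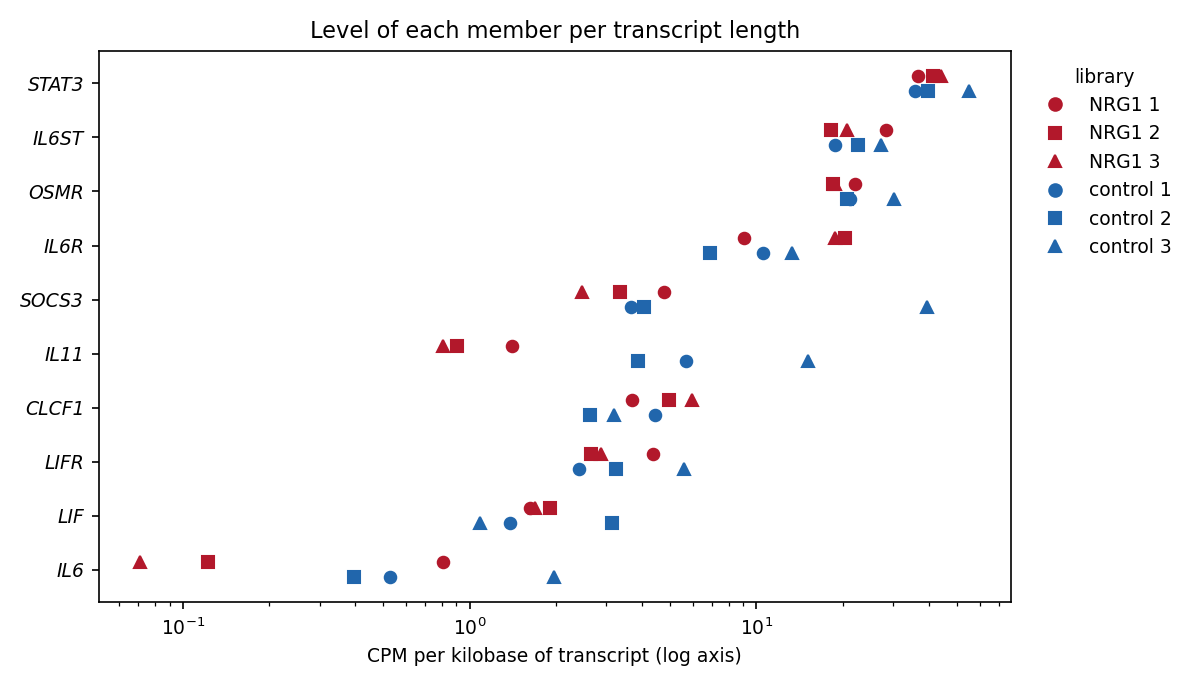
Level of each member in CPM per kilobase of its principal transcript (log axis), members ordered by their mean, with NRG1 libraries (red) above control libraries (blue) in each row. By this length STAT3 leads in every library, and IL11 stands at 0.809 to 1.41 with NRG1, against 3.85 to 15.1 with the control vector.

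The genes whose level across the 6 libraries was most like that of a member were found by the root-mean-square difference of mean-centred log2 CPM, over 11839 genes of at least 5 CPM. For IL11 they included the glucose transporter SLC2A3 (difference 0.34) and the transcription factor CREB5 (0.46). SLC2A3 had 2.71 to 6.68 CPM with NRG1, against 66.2 CPM in control 3 and lower values in the other controls, and its reads are uncertain because of the close copy SLC2A14. CREB5 had 3.04 to 3.46 CPM with NRG1, against 9.43, 6.56 and 36.5 CPM in control 1 to 3. Like IL11, SLC2A3 and CREB5 were higher in every control library than in any NRG1 library and highest in control 3.

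For SOCS3 the most alike were NR4A1 (an immediate early nuclear receptor, 0.19), JUN (a subunit of AP-1, 0.27) and TRIB1 (a pseudokinase, 0.29). JUN had 161, 101 and 89.6 CPM in NRG1 1 to 3, against 87.3, 86.2 and 1103 CPM in control 1 to 3. NR4A1 and TRIB1 had 90.6 and 136 CPM in control 3 and at most 10.5 and 28.3 CPM in the other 5 libraries. For LIF they were the zinc finger gene ZNF524 (0.13), the vasohibin-binding SVBP (0.17) and PCK2, the mitochondrial phosphoenolpyruvate carboxykinase (0.18), which like LIF were highest in control 2. IL6 was not tested and has no such list. These likenesses over 6 libraries are descriptions.

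Beside the members, 92 further genes of the pathway and of its known inducers were listed, of which 81 passed the low-count filter. By edgeR's quasi-likelihood test, adjusted over all genes, 0 of the 81 passed in either direction, and at an unadjusted p under 0.05 there were 2 higher (SERPINA3 and SAA2) and 12 lower, where over all tested genes 5.08% were higher and 6.72% lower. DESeq2 called 1 higher (SERPINA3) and 3 lower, among them IL27RA and RELB, beside 1.36% of all tested genes in either direction. Their median log2 fold change was -0.20, and -0.05 without control 3. In the comparison of NRG1 2 and NRG1 3 with control 1 and control 2, 4 of the 81 were called higher (SERPINA3, SAA1, SAA2 and FOS) and 11 lower, where over all tested genes 5.04% were called higher and 4.79% lower. The p-values of that comparison are too small, since the other libraries were left out for their distance from their groups. Groups did not overlap in 4 genes that were higher (SERPINA3, STAT4, SOCS2 and PIAS2) and 14 that were lower with NRG1, beside 9.36% and 10.2% of all tested genes.

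In the list of the other ligands, 3 of 7 genes were tested and 0 passed. CNTF and CTF1, at 0.46 to 3.21 CPM, had log2 fold changes of -0.53 and 0.16 that changed sign with the libraries used. OSM, the ligand of OSMR, had no counts except 3 in control 3, and IL27 and IL31 had none in any library.

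Of the other receptors, 3 of 4 were tested. IL27RA, the IL-27 chain that pairs with gp130, had 10.8, 9.81 and 9.77 CPM in NRG1 1 to 3, against 27.3, 22.3 and 26.6 CPM in control 1 to 3. The libraries of each group lay close together and the groups were apart, without the excess of control 3 seen for SOCS3. Its log2 fold change was -1.33 (SE 0.22), and -1.34 without control 3 and NRG1 1. The adjusted p was 0.167 in edgeR and 1.65e-05 in DESeq2. IL11RA, the chain specific for IL-11, had 7.29, 14.6 and 13.4 CPM in NRG1 1 to 3, against 11.8, 14.4 and 7.57 CPM in control 1 to 3. Its groups overlapped, and its log2 fold change of 0.08 (SE 0.35) changed sign when single libraries were left out. IL31RA, which pairs with OSMR, had a log2 fold change of -1.05 (SE 0.54, adjusted p = 0.47), and -1.76 without NRG1 1.

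Among JAK kinases and the other STATs, 9 of 10 were tested and 0 passed. TYK2, a JAK that binds gp130, had 72.8, 111 and 96.3 CPM in NRG1 1 to 3, against 132, 142 and 162 CPM in control 1 to 3. The groups did not overlap, and the log2 fold change was -0.64 (SE 0.19, adjusted p = 0.33, edgeR). JAK1 and JAK2 had log2 fold changes of -0.08 and -0.06. STAT5A stood at 3.71 to 7.29 CPM with NRG1 and 7.57 to 9.51 CPM with the control vector, with adjusted p = 0.49. STAT4 stood at 1.96 to 3.21 CPM with NRG1 and 0.97 to 1.82 CPM with the control vector, with adjusted p = 0.53.

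Of 16 other negative regulators (SOCS and PIAS proteins, phosphatases and the adaptor SH2B3), 15 were tested and 0 passed, with a median log2 fold change of -0.14. SH2B3 was at -0.78 (SE 0.29, adjusted p = 0.39), SOCS5 at -0.49 (SE 0.21) and CISH at -0.88 (SE 0.40). Without control 3 SOCS5 was at -0.33 and CISH at -0.35. SOCS1, a further STAT-induced inhibitor, had 1.24, 1.12 and 0.98 CPM in NRG1 1 to 3, against 0.97, 1.21 and 5.79 CPM in control 1 to 3, and so stood out in the same control library as SOCS3. The sheddases ADAM10 and ADAM17, which release soluble IL-6 receptor from the cell surface, stood at log2 fold changes of 0.26 (SE 0.19) for ADAM10 and 0.22 (SE 0.20) for ADAM17, and their groups overlapped.

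Of 29 genes known as STAT3 targets, 25 were tested, 0 passed, 14 lay below 0 and the median log2 fold change was -0.08. SERPINA3, an acute-phase protease inhibitor, had 15.6, 26.6 and 28.9 CPM in NRG1 1 to 3, against 8.06, 9.89 and 4.86 CPM in control 1 to 3. All NRG1 libraries lay above all controls, and the log2 fold change was 1.65 (SE 0.35), for which edgeR gave an adjusted p of 0.239 and DESeq2 one of 0.00237. The serum amyloid genes SAA1 and SAA2 followed with 0.84 (SE 0.39) and 1.13 (SE 0.43), high in NRG1 2 and NRG1 3 and within the control range in NRG1 1. SAA1 and SAA2 are near-identical copies, so their counts are uncertain. SERPINA3, SAA1 and SAA2 thus lay on the side opposite to IL11 and SOCS3. The 25 targets as a list took no clear side. Their median log2 fold change was -0.08 with all libraries, 0.08 without control 3 and 0.0001 without control 3 and NRG1 1. In the comparison of NRG1 2 and NRG1 3 with control 1 and control 2, 4 of these targets were called higher and 4 lower. Over all tested genes 5.04% were called higher and 4.79% lower. Those called lower were MYC (log2 fold change -0.80), IER3 (-0.83), TIMP1 (-1.53) and NNMT (-1.21). The p-values of that comparison are too small, as said above.

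The inducer lists differed in how far control 3 carried them. The 7 AP-1 genes had a median log2 fold change of -0.86 with all libraries and 0.29 without control 3, and 0 passed. The median of their log2 CPM, each gene set against its control mean, was 0.05, -0.79 and -0.94 in NRG1 1 to 3, against -0.91, -0.77 and 1.61 in control 1 to 3. Of them JUN was at -1.86 (SE 0.92), and 0.42 without control 3, JUND at -0.70 (SE 0.33), and -0.18 without control 3, and FOSL2 at 0.34 (SE 0.18). The 8 NF-kB genes had a median of -0.75 with all libraries and -0.12 without control 3, and 0 passed by edgeR. Of them RELB had 9.64, 11.8 and 8.79 CPM in NRG1 1 to 3, against 13.1, 28.1 and 51.9 CPM in control 1 to 3, with an adjusted p of 0.332 in edgeR and 0.0413 in DESeq2. TNFAIP3 and NFKB2 were at -1.47 (SE 0.47) and -1.14 (SE 0.37), with groups that did not overlap. Without control 3 the log2 fold changes were -1.03 for RELB, -0.70 for TNFAIP3 and -0.61 for NFKB2.

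The 11 genes of TGF-beta signalling had a median log2 fold change of -0.46, and -0.41 without control 3, and 0 passed by edgeR, with 4 lower at an unadjusted p under 0.05 (6.72% over all tested genes). TGFB1, the ligand, had 48.8, 38.2 and 31.5 CPM in NRG1 1 to 3, against 59.0, 55.1 and 75.8 CPM in control 1 to 3. All NRG1 libraries lay below all controls, and its log2 fold change was -0.68 (SE 0.22, adjusted p = 0.36, edgeR). In the comparison of NRG1 2 and NRG1 3 with control 1 and control 2, 5 of the 11 were called lower, among them the ligands TGFB1 and TGFB2 and the receptor chains TGFBR1 and TGFBR2, with log2 fold changes of -1.49 to -0.61 for these 4, where 4.79% of all tested genes were called lower. SMAD7, the inhibitory SMAD, was at -1.63 (SE 0.62), and -0.48 without control 3, with control 3 at 90.0 CPM and the other 5 libraries between 10.9 and 21.8 CPM.

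**Figure D4:**
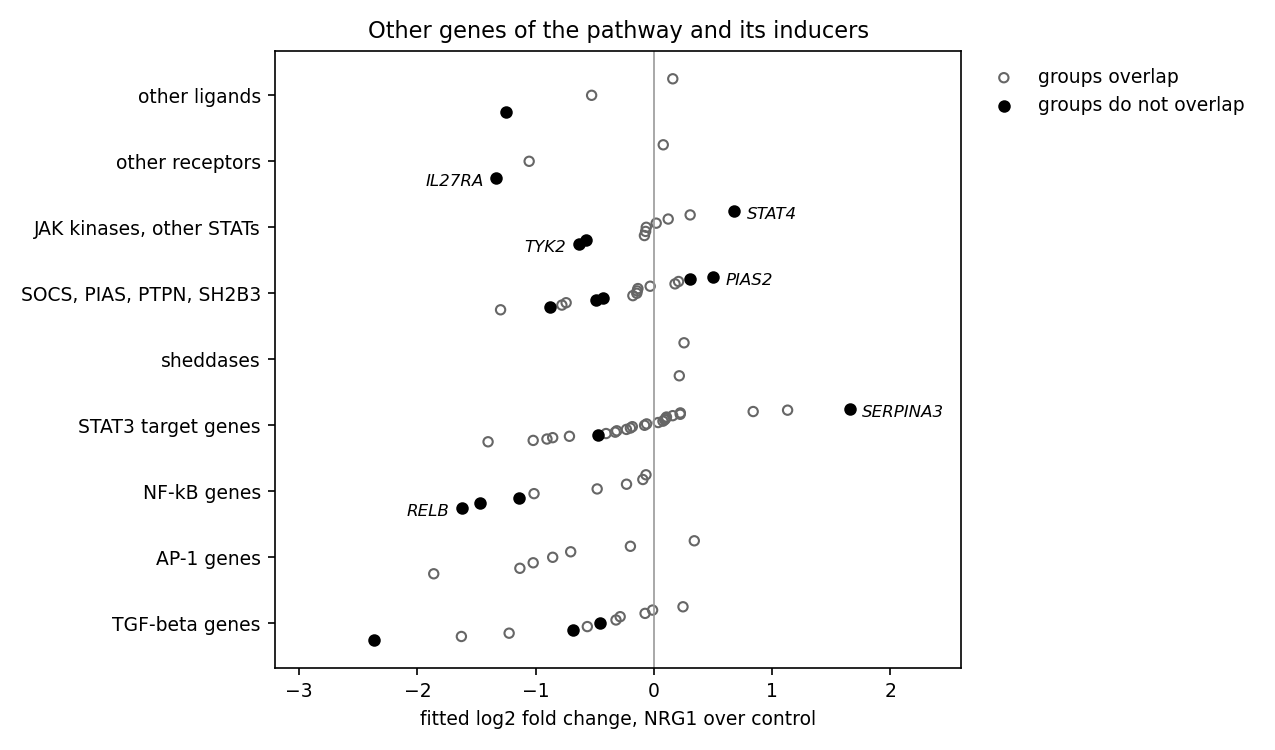
Fitted log2 fold change, NRG1 over control, of the 81 tested genes in 9 lists around the members. Lists can share genes, such as FOS among the STAT3 targets and the AP-1 genes, and a shared gene is drawn in each of its lists. Filled points are genes whose groups did not overlap (4 higher, 14 lower), and 6 of them at the ends of their lists are named. None of the 81 passed edgeR's quasi-likelihood test over all genes.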

How the data were processed

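PolyA RNA of AALE cells with an NRG1 vector (3 libraries) or a control vector (3 libraries) went into TruSeq RNA v2 library preparation per the labels' protocols. The deposited expected counts are gene estimates that need not be whole and are not normalised. Build hg19 and the tools FastQC 0.11.3, STAR 2.5.3a, MultiQC 0.9 and RSEM 1.3.0 are listed, with no role, per the submitters' processing notes. The gene annotation was not given in the sources used here. A further deposited table of log2 values for 14759 genes held 9 of the 10 members (all but IL6). Within 1e-09 they equalled TMM-scaled log2 CPM (prior count 0.25) of those genes' expected counts.

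Rounded expected counts were fitted in R 4.3.3 by edgeR 4.0.16 (TMM, filterByExpr, quasi-likelihood test, no covariate, Benjamini-Hochberg over 15421 genes, threshold 0.05). Members and gene lists were chosen with earlier results of these data known. The text names all members, NRG1, up to 3 genes per list with the smallest unadjusted p, and the 3 genes most like IL11, LIF and SOCS3 (log2 CPM, prior count 2). JAK1, JAK2, SOCS1, SOCS2, PIAS2, OSM, IL27, IL31, FOS, MYC, IER3, TIMP1, NNMT, TGFB2, TGFBR1, TGFBR2, the cell type markers and genes that overlap members were named after their values were seen. Symbols matched 51959 of 57736 identifiers. Lengths came from GENCODE 29, which may differ from the annotation used for counting. SOCS7 and PECAM1 were not analysed here, and some genes that met the naming rule are not reported here. The fit was tested on simulated counts.

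Alternatives were DESeq2 1.42.0, library totals alone, upper-quartile scaling, no low-count filter, at least 1 CPM in 3 libraries, limma 3.58.1 (trend on log2(CPM + 1) and log2(CPM + 0.25), and voom on unrounded values), leaving out each library, and a replicate block. Chosen after seeing the data were NRG1 2 and 3 against control 1 and 2, whose p-values are too small because libraries were left out for their distance, and edgeR's older dispersion method.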

Additional observations from a re-analysis of the deposited data

How the results depend on the processing

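Over all genes edgeR called 1 gene. The count was 21 with no filter on low counts, 209 with DESeq2, 2 with each of limma-trend on log2(CPM + 1), limma-trend on log2(CPM + 0.25) and limma-voom, 1515 in the 2 against 2 comparison, and 1 to 37 with single libraries left out, the highest without NRG1 1. With the replicate number as a block it was 2. The correlations of deviations between same-numbered libraries were 0.02, 0.12 and -0.08. With 3 libraries a group these cannot tell whether same-numbered libraries shared a culture or day, and the labels do not state it. Of the 81 pathway and inducer genes 0 were called, against 1 with no filter, 4 with DESeq2, 15 in the 2 against 2 comparison, and 0 with any single library left out. Members with groups that did not overlap numbered 1 with TMM scaling (19.6% of tested genes), 2 with library totals alone (OSMR besides IL11, 19.8%), 7 in the 2 against 2 comparison (58.2%) and 1 to 6 with single libraries left out (23.3% to 44.8%, both highest without NRG1 1). Fewer libraries separate more often, so nothing is read from these counts. The log2 fold change of IL11 stayed between -3.33 and -2.22 in every alternative run, while that of SOCS3 ran from -2.63 to -0.15 with single libraries left out and was -1.25 with the replicate block. Among the members, 4 values near 0 changed sign with single libraries left out: LIF (-0.36 to 0.50), IL6ST (-0.24 to 0.10), LIFR (-0.45 to 0.21) and STAT3 (-0.22 to 0.10). STAT3 was also at 0.18 in the 2 against 2 comparison, IL6ST at 0.0076 with upper-quartile scaling, and LIF at 0.0098 with the replicate block and 0.03 to 0.10 with the 3 limma settings. Among the other genes named by the smallest unadjusted p of their list, those that changed sign were CNTF (-0.99 to 0.15 with single libraries left out), IL11RA (-0.15 to 0.32), CTF1 (-0.34 to 0.51, and -0.72 in the 2 against 2 comparison) and JUN (-2.34 to 0.42, and 0.14 in the 2 against 2 comparison). FOS, named after its values were seen, was at -0.20 with all libraries and at 1.81 in the 2 against 2 comparison. For the other genes named in that way, sign changes across the alternatives are not reported here. The cause was not tested beyond the libraries named. At 3 libraries a group an exact permutation test cannot go below p = 0.10, and IL6, at 1 to 39 counts, is too shallow for a fold change.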

Other observations

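ENSG00000256514, an annotated gene whose exons cover 650 bases of POLD4 and 61 of CLCF1, was chosen after its values were seen. It had 38.2, 45.3 and 49.9 expected counts in NRG1 1 to 3, against 0 in control 1 to 3, where 3 counts is the limit that a count of 0 allows for counting error. Its adjusted p was 0.0902 in edgeR's quasi-likelihood test and 1.96e-07 in DESeq2. POLD4 itself had 33.4, 50.6 and 46.6 CPM in NRG1 1 to 3, against 27.5, 41.9 and 41.0 CPM in control 1 to 3, so its groups overlapped. Whether reads cross from POLD4 to CLCF1 was not analysed here.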
